A study of Mus musculus with 12 samples.

Results

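IL-6 family signalling through STAT3 was followed through 10 genes, the ligands *Il6*, *Osm* and *Clcf1*, the receptor chains *Il6ra*, *Il6st*, *Osmr* and *Lifr*, the kinase *Jak1*, the transcription factor *Stat3* and the inhibitor *Socs3*. They were chosen with earlier results of these data known, so that their counts beside shares of all genes describe and do not test. Each symbol was found once among the 47069 genes of the table. Of the table, 28019 genes had a value above 0 in 1 library or more. A mean of at least 0.1 FPKM (fragments per kilobase of transcript, scaled to the mapped reads of the library) over the 12 libraries was required for a test, and 17386 genes reached it, among them 9 of the 10 members. *Osm* was below that mean and is given by its values.

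The study deleted *Cdk1*, the kinase that drives entry into mitosis, in mouse hepatocytes, and its comparison of genotypes asks what a block of hepatocyte division does to gene expression in these cells and in the organ. Cdk1 Liv-/- mice carry Cdk1 flox/flox and Albumin-Cre, and Cre under the Albumin promoter acts in hepatocytes. The WT mice are labelled only as wild type, and whether they carry floxed alleles or Cre is not given. All mice were at P14, on standard diet, and the methods state that only males were used. Each genotype was sampled as isolated hepatocytes and as whole liver, which gives 4 groups of 3 libraries. Polyadenylated RNA was read as stranded single ends of 75 bases. An FPKM of 1 on a transcript of 1 kb stood for about 34.9 to 49.9 reads, depending on the library, so that values near 0.1 FPKM rest on few reads. In the main tests each p-value rests on the spread between libraries within the groups compared. Those are all 12 libraries only where the effect of the genotype is compared between the compartments. The 4 comparisons share samples with each other. Whether the hepatocyte and whole liver libraries come from separate animals is not given, and they were treated as separate.

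Cytokines of the IL-6 family bind receptor complexes most of which share the chain gp130, the product of *Il6st*, which carries the signal into the cell. Janus kinases bound to that chain phosphorylate STAT3, which then enters the nucleus and activates genes, among them *Socs3*, whose product blocks the kinases and so ends the signal. In the liver the pathway is best known for the acute phase response, in which hepatocytes secrete defence proteins into the blood, and for its part in regeneration.

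*Cdk1* itself was at 27.9, 20.4 and 28.2 FPKM in the WT hepatocyte libraries and at 9.68, 11.8 and 6.87 FPKM in the Cdk1 Liv-/- hepatocyte libraries. In whole liver it was at 25.3, 22.7 and 21.5 FPKM in WT and at 11.7, 12.1 and 14.2 FPKM in Cdk1 Liv-/-. The genotypes did not overlap in either compartment, and *Cdk1* fell, with log2 fold changes (SE, standard error) of -1.40 (SE 0.22, adjusted p = 0.0148) in hepatocytes and -0.85 (SE 0.10, adjusted p = 0.00353) in whole liver. The table counts the whole gene, not the deleted exons alone.

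There were 3 libraries that were treated as standing apart from their groups, for markers of cell type, sex or *Irf1*. WT hepatocyte replicate 3 had the highest sums of markers of other liver cells among the WT hepatocyte libraries. Cdk1 Liv-/- whole liver replicate 3 had *Xist*, the RNA of the inactive X chromosome, at 158 FPKM while 4 genes of the Y chromosome, *Kdm5d*, *Uty*, *Eif2s3y* and *Ddx3y*, summed to 0. *Xist* did not exceed 0.14 FPKM elsewhere, and the sum of those 4 genes in the 11 remaining libraries ran from 48.4 to 62.1 FPKM. The values of Cdk1 Liv-/- whole liver replicate 3 conflict with the statement that only males were used. Whether its sex or its identity differs from what is stated is not known. Cdk1 Liv-/- whole liver replicate 1 had *Irf1*, on the list of STAT3 targets below, at 76.2 FPKM, against 23.4 and 19.2 FPKM in the other libraries of its group. Over all genes tested, though, replicate 2 of that group lay furthest from the other 2 libraries of its group, with a root mean square log2 difference of 0.418 against 0.370 for replicate 1 and 0.327 for replicate 3. Replicate 2 also differed in markers of cell type. Its sum of cholangiocyte markers was 139 FPKM, against 270.4 in replicate 1 and 259.5 in replicate 3. Its sum of Kupffer cell and macrophage markers was 945 FPKM, against 688 and 716. With replicates 1 and 3 of Cdk1 Liv-/- whole liver left out together that group is replicate 2 alone.

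Hepatocyte markers (10 genes, *Alb* the most abundant) summed to 92010.0 ± 4019 FPKM in WT hepatocytes and 91943 ± 1426 FPKM in WT whole liver (SD, n = 3 each). In Cdk1 Liv-/- the sums were 61526 ± 1664 FPKM in hepatocytes and 67743 ± 4624 FPKM in whole liver (SD, n = 3 each), below every WT library. Much of the sum in hepatocytes came from *Alb*, with a mean of 62176 ± 2145 for WT against 42218 ± 2514 for Cdk1 Liv-/-. In isolated hepatocytes 6 of the 10 genes had a negative and 4 a positive log2 fold change, and *Tat*, *Cps1*, *Hnf4a* and *Ass1* were above WT in every Cdk1 Liv-/- library. No gene on any of the 10 marker lists was at 0 in all 12 libraries. Counts of marker genes that rose in whole liver stand beside 38.0% of all genes tested that were higher there. Of the cell types that moved with genotype in whole liver, monocyte markers (6 genes, *Lyz2* the most abundant) summed to 46.2, 49.4 and 62.4 FPKM in WT against 108, 179 and 124 FPKM in Cdk1 Liv-/-, and 5 of the 6 rose. Neutrophil markers (10 genes, *S100a9* the most abundant) summed to 74.4, 46.05 and 71.1 FPKM in WT against 89.4, 319 and 258 FPKM in Cdk1 Liv-/- whole liver. Of these genes 7 rose, a count that became 2 without WT replicate 1, 1 without WT replicate 2, 4 without WT replicate 3, and, with a Cdk1 Liv-/- library left out, 10 without replicate 1, 3 without replicate 2 or 2 without replicate 3. Stellate cell markers (10 genes, *Dcn* the most abundant) summed to 318, 318 and 334 FPKM in WT against 536, 573 and 534 FPKM in Cdk1 Liv-/- whole liver, and 7 of the 10 rose. Cholangiocyte markers (6 genes, 5 of them tested, *Spp1* the most abundant) summed to 59.4, 62.2 and 45.9 FPKM in WT against 270.4, 139 and 259.5 FPKM in Cdk1 Liv-/- whole liver.

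In isolated hepatocytes the mean sums of most other cell types were lower in Cdk1 Liv-/-. Counts of marker genes that passed the test there stand beside 12.1% of all genes tested that were higher and 6.61% that were lower. Markers of sinusoidal endothelial cells (10 genes, *Stab1* the most abundant) summed to 146, 96.8 and 275 FPKM in WT against 67.6, 43.04 and 50.6 FPKM in Cdk1 Liv-/- hepatocytes. Of these genes 9 fell, a count that became 3 without WT replicate 1 or Cdk1 Liv-/- replicate 2 or 3, and 6 when Cdk1 Liv-/- replicate 1 was left out. In whole liver the same markers summed to 138, 159.6 and 193 FPKM in WT against 168, 216 and 170.2 FPKM in Cdk1 Liv-/-. Kupffer cell and macrophage markers (11 genes, *Cd5l* the most abundant) summed to 374, 203 and 689 FPKM in WT hepatocytes and 228, 169.8 and 149 FPKM in Cdk1 Liv-/- hepatocytes. Their sums in whole liver were 539, 593 and 600.1 FPKM in WT against 688, 945 and 716 FPKM in Cdk1 Liv-/-. Monocyte markers summed to 38.2, 24.9 and 70.5 FPKM in WT hepatocytes and 30.01, 25.4 and 28.1 FPKM in Cdk1 Liv-/- hepatocytes. These values overlap, and 5 of the 6 genes had a positive log2 fold change, with a median of 0.21. Of the 6, 2 were higher past the test, a count that stayed at 2 without each library in turn. Overlap was also seen for neutrophil markers, at 14.3, 12.1 and 50.99 FPKM in WT against 20.99, 9.84 and 19.9 FPKM in Cdk1 Liv-/- hepatocytes. Stellate cell markers summed to 173, 119.6 and 296 FPKM in WT hepatocytes and 106, 106 and 87.9 FPKM in Cdk1 Liv-/- hepatocytes. Cholangiocyte markers went the other way, with 19.6, 14.6 and 30.1 FPKM in WT hepatocytes and 66.8, 124 and 100.2 FPKM in Cdk1 Liv-/- hepatocytes.

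In each genotype, lymphoid and erythroid markers had lower sums in isolated hepatocytes than in whole liver. T and NK cell markers (7 genes, *Trbc2* the most abundant) summed to 3.09 ± 0.670 FPKM in WT against 1.24 ± 0.389 FPKM in Cdk1 Liv-/- hepatocytes, and to 9.21 ± 3.18 and 8.07 ± 0.711 FPKM in whole liver (SD, n = 3 each). B cell markers (5 genes, *Cd79b* the most abundant) summed to 3.71 ± 2.45 FPKM in WT against 0.607 ± 0.182 FPKM in Cdk1 Liv-/- hepatocytes, and to 12.9 ± 1.36 and 8.78 ± 3.55 FPKM in whole liver (SD, n = 3 each). Erythroid markers (6 genes in the table, *Hbb-bs* the most abundant) summed to 197 ± 174 FPKM in WT against 48.3 ± 28.7 FPKM in Cdk1 Liv-/- hepatocytes, and to 1065 ± 405 and 977 ± 214 FPKM in whole liver (SD, n = 3 each). In bulk samples like these, fewer cells of a type and less RNA per cell cannot be told apart. The part of these cell types in the results on the IL-6 family was not tested.

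**Figure D1:**
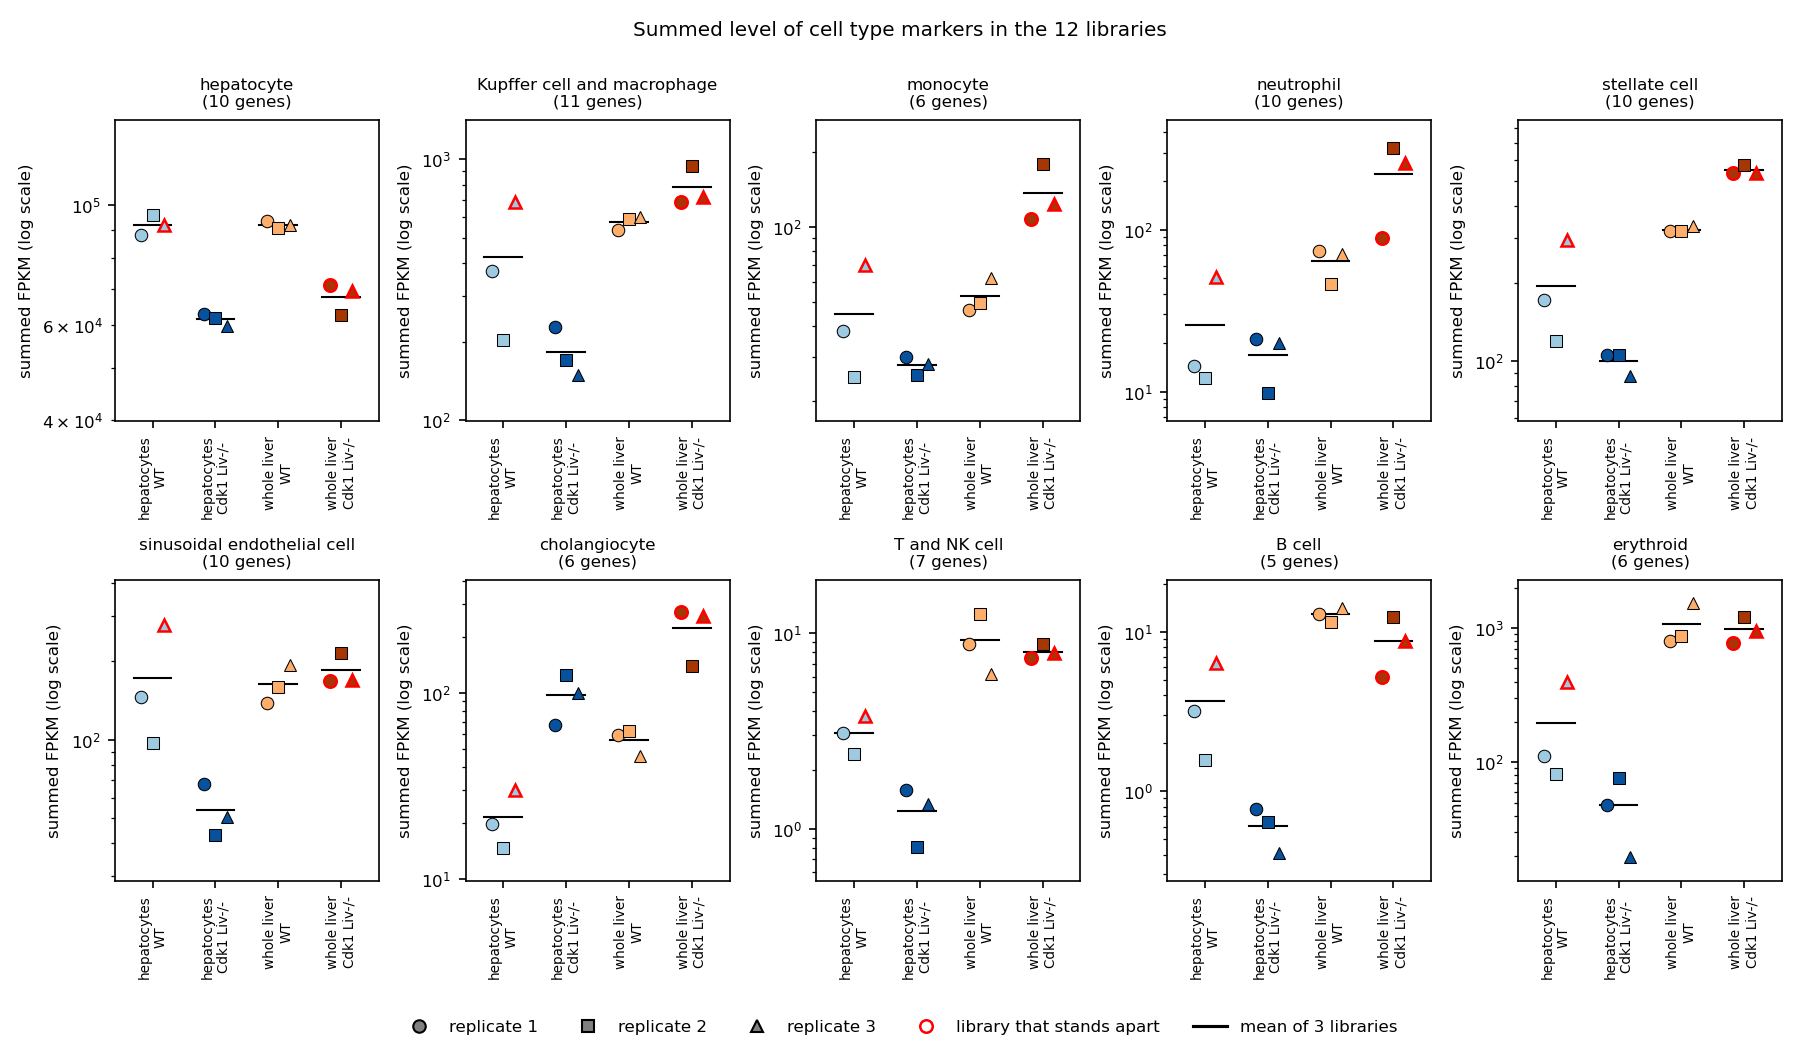
Summed FPKM (log scale) of the markers of 10 cell types in each library, by compartment and genotype, with lines at the mean of 3 libraries and red outlines on the 3 libraries that stand apart. Monocyte markers in whole liver lie between 46.2 and 62.4 FPKM in WT and between 108 and 179 FPKM in Cdk1 Liv-/-, while in isolated hepatocytes the genotypes overlap.

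In the control mice, *Lifr*, *Stat3*, *Jak1*, *Il6ra* and *Il6st* had the highest levels of the members in both compartments, and *Il6* and *Osm* the lowest. By FPKM, a level per length of transcript, *Lifr* had the highest mean in WT hepatocytes, at 35.6 ± 4.65 FPKM (SD, n = 3). It was followed by *Stat3* at 25.7 ± 2.66, *Jak1* at 24.4 ± 4.41, *Il6ra* at 18.9 ± 1.18 and *Il6st* at 13.6 ± 4.98 FPKM (SD, n = 3 each). The libraries of *Lifr* lay above those of *Stat3*, while from *Stat3* to *Il6st* each gene overlapped the next. *Socs3* came next at 1.6 ± 0.380 FPKM, and *Osmr* at 0.767 ± 0.331 FPKM overlapped *Clcf1* at 0.597 ± 0.106 FPKM (SD, n = 3 each). The lowest were *Il6* at 0.22 ± 0.04 FPKM and *Osm* at 0.0133 ± 0.0153 FPKM (SD, n = 3 each), each apart from its neighbour.

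WT whole liver had nearly the same order, with *Lifr* at 37.6 ± 3.19, *Stat3* at 22.8 ± 2.13, *Jak1* at 20.7 ± 1.60, *Il6ra* at 12.7 ± 2.32 and *Il6st* at 9.81 ± 0.638 FPKM (SD, n = 3 each). Only *Stat3* and *Jak1* overlapped among those 5 genes. *Socs3* was at 2.33 ± 0.178 FPKM, and *Clcf1* at 1.11 ± 0.209 stood above *Osmr* at 0.81 ± 0.236 FPKM in the mean, with overlapping libraries (SD, n = 3 each). *Il6*, at 0.15 ± 0.105 FPKM, overlapped *Osm*, at 0.0333 ± 0.00577 FPKM (SD, n = 3 each). In Cdk1 Liv-/- whole liver *Stat3*, *Jak1*, *Lifr* and *Il6st* ran into each other from 31.9 ± 5.58 down to 18.2 ± 1.87 FPKM (SD, n = 3 each), and *Socs3* had a higher mean than *Il6ra*, with overlapping libraries. In Cdk1 Liv-/- hepatocytes *Stat3* had a higher mean than *Lifr*, again with overlap.

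Between WT hepatocytes and WT whole liver, none of the 9 members passed the limma test with the adjusted p held to 0.1, and 3 were at an unadjusted p under 0.05, *Clcf1*, *Il6ra* and *Socs3*. Of all genes tested, 0.104% were higher and 1.42% lower in WT hepatocytes than in WT whole liver at that threshold. *Il6ra*, the chain that binds IL-6 itself, had a log2 difference of 0.56 (SE 0.13, adjusted p = 0.136), with all 3 hepatocyte libraries above all 3 whole liver libraries. It passed without WT hepatocyte replicate 3 or WT whole liver replicate 3, at 0.60 to 0.70 (adjusted p = 0.0812 to 0.0904, with 0.0812 to 0.403 over all its alternatives). *Clcf1* had a log2 difference of -0.55 (SE 0.14, adjusted p = 0.158), lower in all 3 hepatocyte libraries, and passed without WT hepatocyte replicate 3 at -0.62 (adjusted p = 0.0746, with 0.0746 to 0.436 over all its alternatives).

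**Figure D2:**
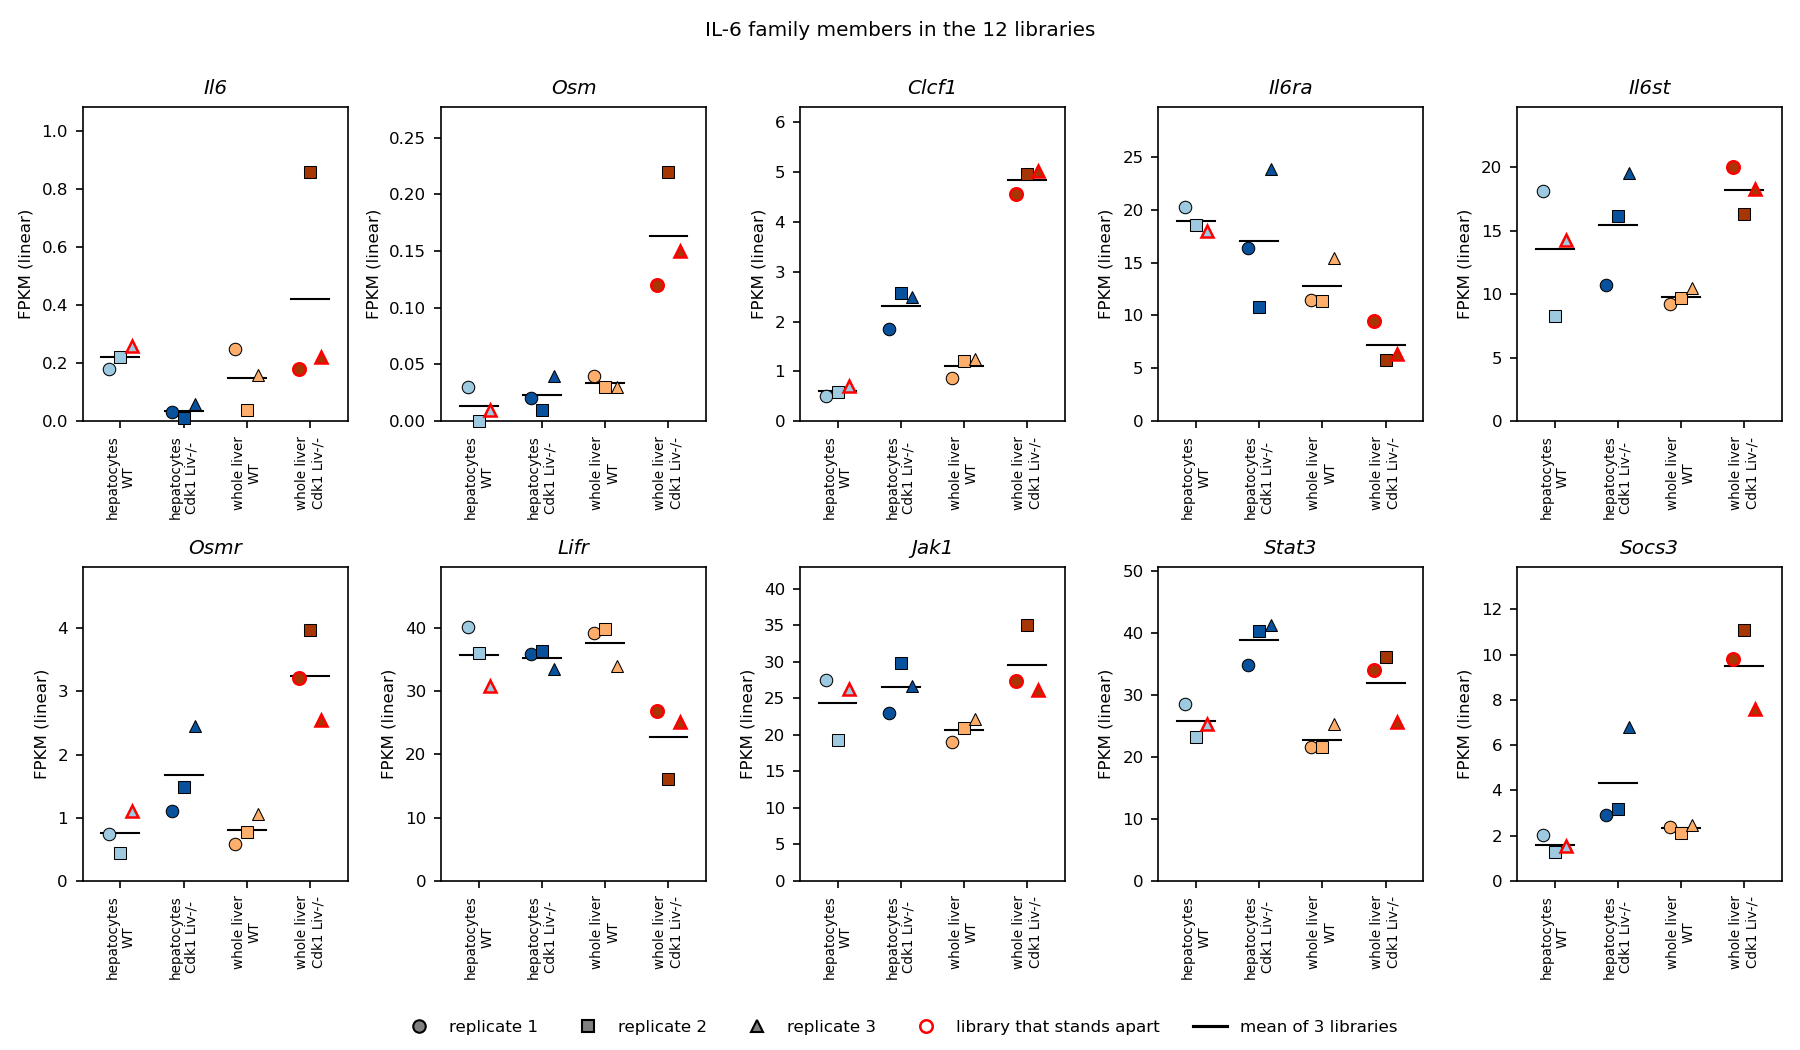
FPKM (linear scale) of the 10 members in each library, by compartment and genotype, with lines at the mean of 3 libraries and red outlines on the 3 libraries that stand apart. For *Clcf1* the libraries of the genotypes are separate in both compartments, at 0.5 to 0.71 against 1.86 to 2.57 FPKM in hepatocytes and 0.87 to 1.25 against 4.56 to 5.03 FPKM in whole liver.

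In isolated hepatocytes, *Clcf1*, *Stat3* and *Socs3* were higher and *Il6* was lower in Cdk1 Liv-/- than in WT. *Clcf1* was 3.87 times, *Socs3* 2.70 times and *Stat3* 1.51 times the WT mean (ratios of mean FPKM, n = 3 each). The genes of the receptor chains and *Jak1* did not pass. That is 3 members higher and 1 lower of 9 tested, where 12.1% of all genes tested were higher and 6.61% lower. Among changes of at least 1 on the log2 scale in either direction, *Clcf1* and *Socs3* were higher, against 4.20% of all genes, and no member was lower, against 2.17% (5 members were at an unadjusted p under 0.05 in limma). The libraries of the genotypes were separate for 4 of the 9 members, as they were for 34.0% of all genes tested. The median log2 fold change of the members was 0.21 and that of all genes tested 0.05.

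In whole liver, 6 members were higher in Cdk1 Liv-/- and 2 were lower, *Il6ra* and *Lifr*. Those that rose were *Clcf1*, *Il6st*, *Osmr*, *Jak1*, *Stat3* and *Socs3*, and *Clcf1*, *Socs3* and *Osmr* reached 4.37, 4.08 and 4.004 times the WT mean (ratios of mean FPKM, n = 3 each). Of all genes tested, 38.0% were higher and 7.53% lower past the same test. Among changes of at least 1 on the log2 scale in either direction, 3 members were higher, against 4.59% of all genes, and none was lower, against 1.00%, with 8 members at an unadjusted p under 0.05 in limma. The libraries of the genotypes were separate for 8 of the 9 members and for 52.1% of all genes tested.

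The whole liver fold changes carry a shift of the whole table. The median log2 fold change of all genes tested was 0.18 in whole liver, against 0.49 for the members, and it fell by 0.17 when FPKM were divided by median-ratio size factors. So scaled, *Clcf1* was at 1.54, *Il6st* at 0.64, *Osmr* at 1.33, *Socs3* at 1.60, *Il6ra* at -1.01 and *Lifr* at -0.96 on the log2 scale, all 6 past the test. *Stat3*, at 0.25 (adjusted p = 0.270, with 0.0196 to 0.270 over all its alternatives), and *Jak1*, at 0.27 (adjusted p = 0.146, with 0.0222 to 0.146), were then not past it. Whole liver counts after this scaling, here and in the lists below, have their own background. Of the 17386 genes tested, 5951 then passed, 52.2% of them higher, against 7920 and 83.5% unscaled. Without Cdk1 Liv-/- replicates 1 and 3, left out together after the data had been seen, the group is replicate 2 alone, whose spread is assumed to be that of WT, and the same 8 members were past the test in the same directions, with *Il6* as well. Without replicate 2, 5 members were higher and 2 lower, all of the 8 but *Stat3*.

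**Figure D3:**
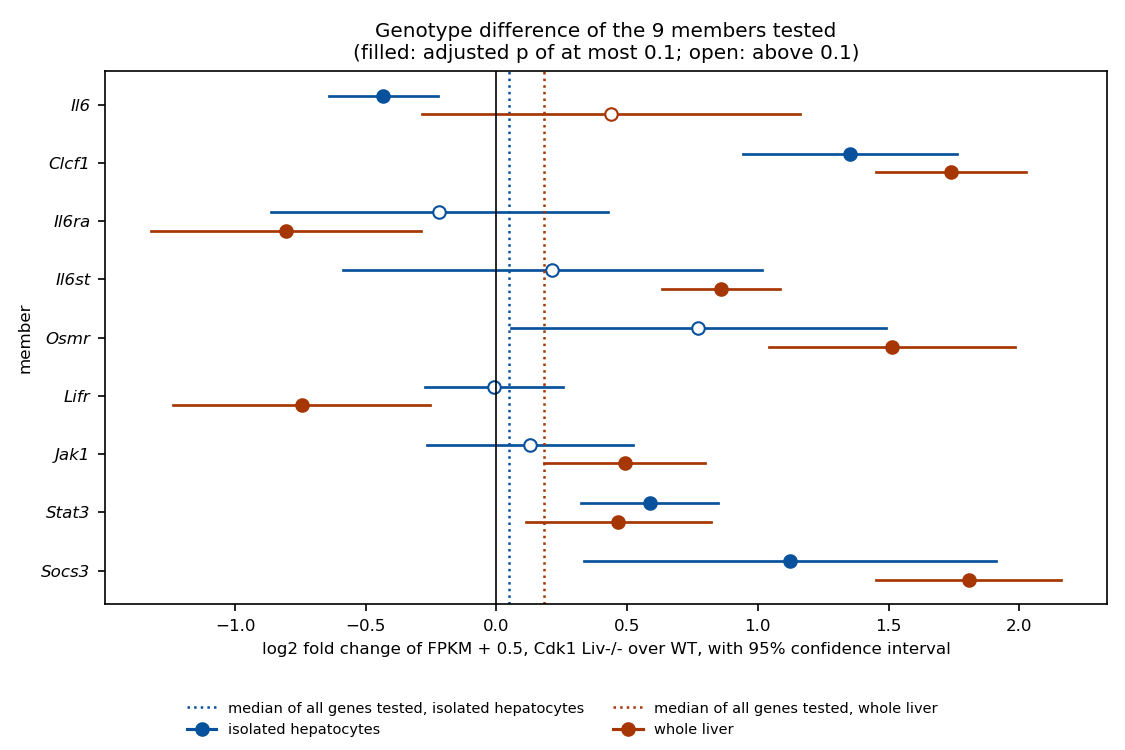
Log2 fold change of FPKM + 0.5 (x axis, Cdk1 Liv-/- over WT) with its 95% confidence interval for the 9 members tested (y axis), in isolated hepatocytes (blue) and whole liver (brown), with dotted lines at the median of all genes tested. *Clcf1*, *Stat3* and *Socs3* are filled to the right of 0 in both compartments, *Stat3* in whole liver without that call after median-ratio scaling, and *Il6ra* and *Lifr* are filled to the left of 0 in whole liver.

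*Il6* (ENSMUSG00000025746, chr5:30013114-30019981 in GRCm38, plus strand) encodes IL-6, the founding cytokine of the family, which macrophages release in inflammation. It was at 0.18, 0.22 and 0.26 FPKM in WT hepatocytes and at 0.03, 0.01 and 0.06 FPKM in Cdk1 Liv-/- hepatocytes. All 3 Cdk1 Liv-/- libraries were below all 3 WT libraries. By the depth estimate these FPKM stand for about 4.90 to 28.0 reads in a WT library and 0.23 to 4.75 reads in a Cdk1 Liv-/- library, since the transcripts of *Il6* run from 651 to 2343 bases. *Il6* fell, with a log2 fold change of -0.43 (SE 0.09, adjusted p = 0.0293). The value depends on the pseudocount and was -1.27 with 0.1 added in place of 0.5. In a fit of all 12 libraries the call was lost (adjusted p = 0.201, with 0.0223 to 0.201 over all alternatives). The Kupffer cell and macrophage sums of the same libraries, 374, 203 and 689 FPKM in WT against 228, 169.8 and 149 FPKM in Cdk1 Liv-/-, overlapped between the genotypes, while all 11 genes had a negative log2 fold change, with a median of -1.11. The sinusoidal endothelial sums, 146, 96.8 and 275 FPKM in WT against 67.6, 43.04 and 50.6 FPKM in Cdk1 Liv-/-, were lower without overlap. The part of these cells in the *Il6* result was not tested.

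Whole liver gave *Il6* at 0.25, 0.04 and 0.16 FPKM in WT and at 0.18, 0.86 and 0.22 FPKM in Cdk1 Liv-/-. Replicate 2 of Cdk1 Liv-/- was the highest of the 12 libraries, and the other libraries of that group lay within the WT range. The log2 fold change was 0.44 (SE 0.29, adjusted p = 0.287) and did not pass. Without Cdk1 Liv-/- replicates 1 and 3 it rests on replicate 2 alone, with its spread assumed to be that of WT, and was 1.08 (adjusted p = 0.0477, with 0.0477 to 0.592 over all alternatives).

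*Osm* (ENSMUSG00000058755, chr11:4236420-4241026, plus strand) encodes oncostatin M, a cytokine of myeloid cells that acts through *Osmr*. Its values in isolated hepatocytes were 0.03, 0 and 0.01 FPKM in WT against 0.02, 0.01 and 0.04 FPKM in Cdk1 Liv-/-, which overlap. In whole liver they were 0.04, 0.03 and 0.03 FPKM in WT against 0.12, 0.22 and 0.15 FPKM in Cdk1 Liv-/-, and all 3 Cdk1 Liv-/- libraries were the highest of the 12. On a transcript of 2272 bases these are about 2.76 to 3.67 reads in a WT library of whole liver and 12.6 to 23.0 reads in a Cdk1 Liv-/- library. With no filter on low values, *Osm* had a log2 fold change of 0.31 in whole liver (adjusted p = 0.0305) and 0.03 in hepatocytes (adjusted p = 0.654), with a difference of these effects of -0.28 (adjusted p = 0.0905), from 1 setting each. The monocyte sums moved with *Osm* in whole liver, at 46.2, 49.4 and 62.4 FPKM in WT against 108, 179 and 124 FPKM in Cdk1 Liv-/-, and their part in it was not tested.

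*Clcf1* (ENSMUSG00000040663, chr19:4214238-4223490, plus strand) encodes cardiotrophin-like cytokine factor 1, which signals through gp130 and the LIF receptor together with the receptor of ciliary neurotrophic factor. WT hepatocytes had it at 0.5, 0.58 and 0.71 FPKM and Cdk1 Liv-/- hepatocytes at 1.86, 2.57 and 2.5 FPKM. In whole liver it was at 0.87, 1.21 and 1.25 FPKM in WT and at 4.56, 4.96 and 5.03 FPKM in Cdk1 Liv-/-. In each compartment every Cdk1 Liv-/- library was above every WT library. *Clcf1* rose in hepatocytes, with a log2 fold change of 1.35 (SE 0.17, adjusted p = 0.00708), and in whole liver, with 1.74 (SE 0.12, adjusted p = 0.000739), in every alternative run. A readthrough gene on the same strand covers 9134 bases of *Clcf1* in GENCODE M21 and is not in the table, so that reads of the former may be counted here.

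*Il6ra* (ENSMUSG00000027947, chr3:89864059-89913196, minus strand) encodes the receptor chain that binds IL-6 and hands it to gp130. Hepatocyte values were 20.3, 18.5 and 18 FPKM in WT against 16.3, 10.8 and 23.8 FPKM in Cdk1 Liv-/-. The Cdk1 Liv-/- libraries lay on both sides of the WT libraries, and the log2 fold change was -0.22 (SE 0.27, adjusted p = 0.631). Whole liver values were 11.4, 11.4 and 15.4 FPKM in WT against 9.43, 5.74 and 6.31 FPKM in Cdk1 Liv-/-. There all 3 Cdk1 Liv-/- libraries were below all 3 WT libraries, and *Il6ra* fell, with a log2 fold change of -0.81 (SE 0.21, adjusted p = 0.0325). The summed hepatocyte markers were lower in whole liver as well, from 93449.8, 90615 and 91763 FPKM in WT to 71238, 62500.0 and 69492 FPKM in Cdk1 Liv-/-, and their part in the *Il6ra* result was not tested.

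*Il6st* (ENSMUSG00000021756, chr13:112464070-112510086, plus strand) encodes gp130, the chain that most receptors of the family use. It was at 18.1, 8.26 and 14.3 FPKM in WT hepatocytes and at 10.8, 16.2 and 19.6 FPKM in Cdk1 Liv-/- hepatocytes, with the genotypes overlapping and a log2 fold change of 0.21 (SE 0.33, adjusted p = 0.712). WT replicate 2 was the lowest of these 6 libraries, and without it the value was -0.09. Whole liver had it at 9.21, 9.74 and 10.5 FPKM in WT and at 20.05, 16.3 and 18.3 FPKM in Cdk1 Liv-/-, with every Cdk1 Liv-/- library above every WT library. *Il6st* rose there, with a log2 fold change of 0.86 (SE 0.09, adjusted p = 0.00296). In the same whole livers *Il6ra*, the partner chain for IL-6, had fallen.

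*Osmr* (ENSMUSG00000022146, chr15:6813577-6874969, minus strand) encodes the receptor chain of oncostatin M. In hepatocytes it was at 0.74, 0.45 and 1.11 FPKM in WT and at 1.11, 1.49 and 2.45 FPKM in Cdk1 Liv-/-, and the lowest Cdk1 Liv-/- library equalled the highest WT library, replicate 3, which stands apart. The log2 fold change was 0.77 (SE 0.30, adjusted p = 0.151), and in a fit of all 12 libraries, with a shared spread, it passed (adjusted p = 0.0543, with 0.0543 to 0.317 over all alternatives). In whole liver *Osmr* was at 0.59, 0.78 and 1.06 FPKM in WT and at 3.21, 3.97 and 2.55 FPKM in Cdk1 Liv-/-. The groups were separate, and *Osmr* rose, with a log2 fold change of 1.51 (SE 0.19, adjusted p = 0.00447). Stellate cell sums, at 318, 318 and 334 FPKM in WT and 536, 573 and 534 FPKM in Cdk1 Liv-/- whole liver, went the same way as *Osmr* there. Sums of monocyte, neutrophil, cholangiocyte, and Kupffer cell and macrophage markers were higher in Cdk1 Liv-/- whole liver as well. In hepatocytes the stellate cell sums were lower in Cdk1 Liv-/-, at 106, 106 and 87.9 FPKM against 173, 119.6 and 296 FPKM in WT. The part of these cells in the *Osmr* result was not tested.

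*Lifr* (ENSMUSG00000054263, chr15:7090614-7197489, plus strand) encodes the receptor of leukemia inhibitory factor and lies next to *Osmr* on chromosome 15. It was at 40.1, 35.9 and 30.8 FPKM in WT hepatocytes and at 35.8, 36.3 and 33.5 FPKM in Cdk1 Liv-/- hepatocytes, which overlap, with a log2 fold change of -0.01 (SE 0.11, adjusted p = 0.961) and a 95% confidence interval of -0.27 to 0.25. In whole liver it was at 39.1, 39.7 and 33.9 FPKM in WT and at 26.9, 16.1 and 25.1 FPKM in Cdk1 Liv-/-. All 3 Cdk1 Liv-/- libraries were below all 3 WT libraries, and *Lifr* fell, with a log2 fold change of -0.74 (SE 0.20, adjusted p = 0.0353). It was not past the test without WT replicate 1 or WT replicate 2, at -0.72 to -0.70 (adjusted p = 0.102 to 0.108, with 0.00968 to 0.108 over all alternatives). Without Cdk1 Liv-/- replicates 1 and 3 its value was -1.19.

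*Jak1* (ENSMUSG00000028530, chr4:101152367-101265282, minus strand) encodes the main Janus kinase of gp130. Its hepatocyte values were 27.5, 19.3 and 26.3 FPKM in WT against 23.1, 29.8 and 26.7 FPKM in Cdk1 Liv-/-, with overlap and a log2 fold change of 0.13 (SE 0.16, adjusted p = 0.646). In whole liver *Jak1* was at 19.05, 20.9 and 22.2 FPKM in WT and at 27.4, 35.1 and 26.2 FPKM in Cdk1 Liv-/-, with replicate 2 the highest of the 12 libraries and no overlap. It rose, with a log2 fold change of 0.49 (SE 0.13, adjusted p = 0.0308). The call was lost without WT replicate 1, at 0.43 (adjusted p = 0.101), and after median-ratio scaling, and without Cdk1 Liv-/- replicates 1 and 3 the value was 0.75 (adjusted p = 0.0290, with 0.0222 to 0.146 over all alternatives).

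*Stat3* (ENSMUSG00000004040, chr11:100885098-100939540, minus strand) encodes the transcription factor that carries the signal to the genome and is among its own targets. WT hepatocytes had it at 28.5, 23.3 and 25.4 FPKM and Cdk1 Liv-/- hepatocytes at 34.9, 40.4 and 41.2 FPKM. Every Cdk1 Liv-/- library was above every WT library, and *Stat3* rose, with a log2 fold change of 0.59 (SE 0.11, adjusted p = 0.0241). That call was kept without each library in turn and was lost with the replicate number as a replicate block (adjusted p = 0.103, with 0.00977 to 0.103 over all alternatives). In whole liver *Stat3* was at 21.6, 21.5 and 25.3 FPKM in WT and at 34.03, 36.2 and 25.6 FPKM in Cdk1 Liv-/-. Replicate 3 of Cdk1 Liv-/-, which stands apart, lay just above the highest WT library. The log2 fold change was 0.47 (SE 0.14, adjusted p = 0.0528), past the test, and not past it without WT replicate 1 or 2, Cdk1 Liv-/- replicate 1 or Cdk1 Liv-/- replicate 2, at 0.37 to 0.43 (adjusted p = 0.123 to 0.150, with 0.0196 to 0.270 over all alternatives). This call was also lost with no filter (adjusted p = 0.112), with the replicate block (0.126), in a two-sample test (0.119) and after median-ratio scaling (0.270). The table measures *Stat3* RNA only, and phosphorylated STAT3 was not analysed here. *Stat3* and *Stat5a* overlap by 72 bases on opposite strands.

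*Socs3* (ENSMUSG00000053113, chr11:117966079-117970047, minus strand) encodes the inhibitor that STAT3 induces and that binds gp130 and its kinases. Hepatocytes had it at 2.01, 1.26 and 1.53 FPKM in WT and at 2.93, 3.19 and 6.82 FPKM in Cdk1 Liv-/-. No Cdk1 Liv-/- library was within the WT range, and replicate 3 was the highest of the 6. *Socs3* rose, with a log2 fold change of 1.12 (SE 0.33, adjusted p = 0.0811), and was not past the test without WT replicate 1, 2 or 3 or without Cdk1 Liv-/- replicate 2 or 3, at 0.78 to 1.27 (adjusted p = 0.111 to 0.181, with 0.0114 to 0.184 over all alternatives). In whole liver it was at 2.39, 2.13 and 2.47 FPKM in WT and at 9.83, 11.1 and 7.59 FPKM in Cdk1 Liv-/-. There the groups were far apart, and *Socs3* rose, with a log2 fold change of 1.81 (SE 0.14, adjusted p = 0.00118), in every alternative run.

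The letters TTCNNNGAA, the palindromic core that STAT proteins bind and therefore the same on both strands, were searched in the 250 bases before the start of each gene in the promoters of RefSeq (GRCm38.p6). Of 32851 promoters, 2306 (7.02%) held them, and of 27025 gene symbols with a promoter, 2197 (8.13%). A promoter was given for 8 of the 10 members, all but *Osm* and *Clcf1*, and 1 of the 8, that of *Socs3*, held them. Among genes known as targets of STAT3, 7 of the 35 with a promoter given (20%) held them, *Apcs*, *Fga*, *Fgb*, *Hamp*, *Irf1*, *Itih4* and *Steap4*. Of these 7, *Hamp* and *Steap4* rose in both compartments, *Itih4* was lower in whole liver, and the other 4 passed in neither compartment with all libraries. The upstream sequences of *Socs3*, *Hamp* and *Steap4* are shown as examples. That of *Socs3* is chr11:117969367-117969616 (minus strand), with the match at position -154 from the start that the promoter entry of RefSeq uses. That start lies inside the span of the gene in GENCODE given above, as does the window, and 77 of its bases lie in an exon of a non-coding *Socs3* transcript. *Hamp* is shown for chr7:30944033-30944279 (minus strand) with the match at position -97, and *Steap4* for chr5:7960222-7960456 (plus strand) with the match at position -116, where 83 bases lie in an exon of the non-coding gene *Gm30835*. Each reads 5′ to 3′ in the direction of the gene, in lower case, with the match in capitals. A match describes the letters and does not show that STAT3 binds there.
Socs3: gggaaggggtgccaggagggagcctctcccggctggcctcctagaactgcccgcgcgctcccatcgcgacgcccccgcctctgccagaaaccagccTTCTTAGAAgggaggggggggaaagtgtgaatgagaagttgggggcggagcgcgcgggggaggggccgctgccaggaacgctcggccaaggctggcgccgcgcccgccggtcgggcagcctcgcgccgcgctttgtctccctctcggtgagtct
Hamp: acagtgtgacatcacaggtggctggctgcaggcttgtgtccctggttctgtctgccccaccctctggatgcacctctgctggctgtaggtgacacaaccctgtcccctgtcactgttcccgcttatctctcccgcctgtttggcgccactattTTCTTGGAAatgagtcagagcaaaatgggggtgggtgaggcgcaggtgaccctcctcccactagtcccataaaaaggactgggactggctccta
Steap4: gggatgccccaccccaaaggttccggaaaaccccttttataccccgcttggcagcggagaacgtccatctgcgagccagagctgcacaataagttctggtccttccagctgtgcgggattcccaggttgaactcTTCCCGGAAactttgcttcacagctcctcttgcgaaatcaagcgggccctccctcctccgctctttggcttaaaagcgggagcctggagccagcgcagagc

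Whether the effect of the genotype differed between the compartments was tested as the interaction, hepatocytes minus whole liver, over all 12 libraries. In limma 0 of the 9 members passed in either direction, with 2 at an unadjusted p under 0.05, *Il6* and *Lifr*, while 2.35% of all genes tested were above and 7.49% below 0 past the test. The receptor genes therefore cannot be said to respond in whole liver only. For *Il6ra* the difference of the log2 fold changes was 0.59 (adjusted p = 0.356), for *Il6st* -0.64 (adjusted p = 0.319), for *Osmr* -0.74 (adjusted p = 0.254), and for *Jak1* -0.36 (adjusted p = 0.342). *Clcf1*, *Stat3* and *Socs3*, which rose in both, had differences of -0.39 (adjusted p = 0.278), 0.12 (adjusted p = 0.747) and -0.68 (adjusted p = 0.295). The median over the members was -0.39 and over all genes tested -0.11, and median-ratio scaling raised the latter by 0.12.

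*Lifr* and *Il6* came nearest to a difference between the compartments. *Lifr* was at 0.73 (SE 0.24, adjusted p = 0.102), less negative in hepatocytes, and passed without Cdk1 Liv-/- whole liver replicate 1, at 0.87 (adjusted p = 0.0839, with 0.0186 to 0.212 over all alternatives). *Il6* was at -0.87 (SE 0.32, adjusted p = 0.139), and with the 3 libraries that stand apart left out together it was -1.47 (adjusted p = 0.0266, with 0.0266 to 0.253 over all alternatives) and *Lifr* was 1.08 (adjusted p = 0.0186), both past the test. There the Cdk1 Liv-/- whole liver group is replicate 2 alone, which has the highest *Il6* and the lowest *Lifr* of the 12 libraries. *Il6st* passed without WT hepatocyte replicate 2, at -0.95 (adjusted p = 0.0667, with 0.0667 to 0.724 over all alternatives). *Socs3* passed without Cdk1 Liv-/- hepatocyte replicate 3, at -1.03 (adjusted p = 0.0780, with 0.0780 to 0.482 over all alternatives).

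**Figure D4:**
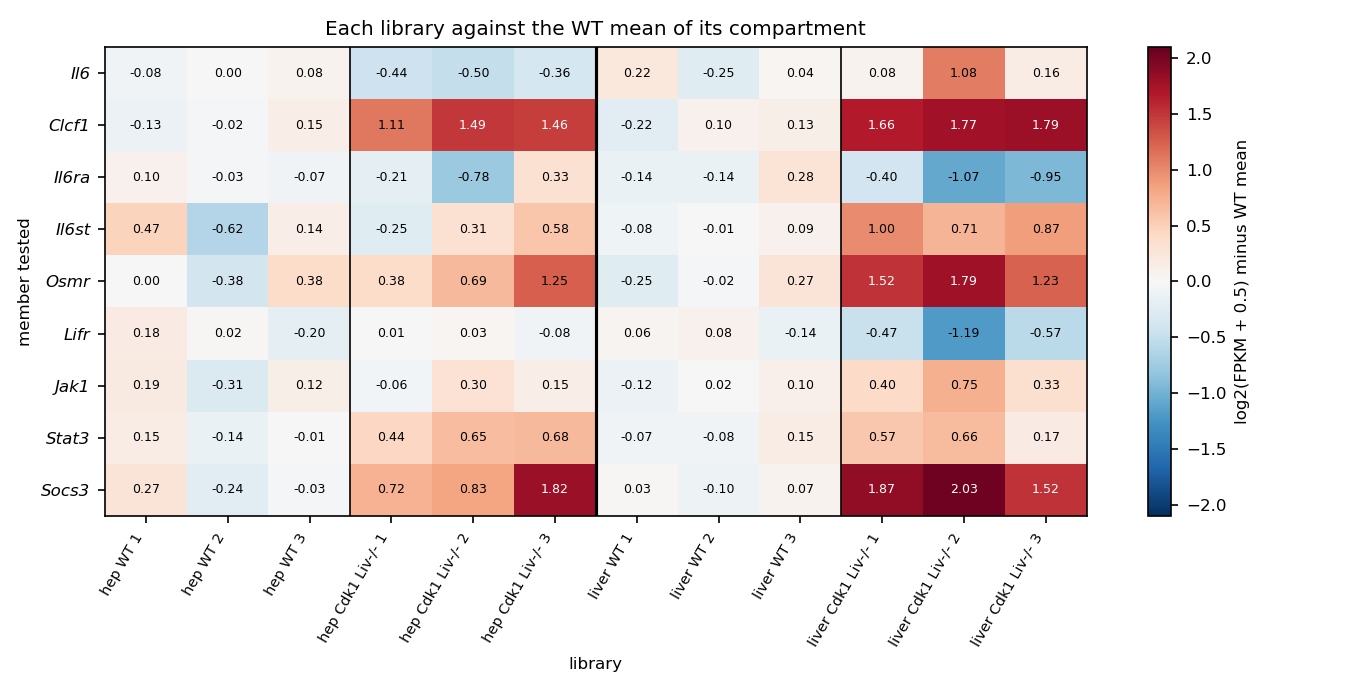
Log2(FPKM + 0.5) of the 9 members tested (y axis) in each library (x axis), minus the WT mean of the same compartment, in red above and blue below it. *Clcf1* is at 1.11 to 1.49 in the Cdk1 Liv-/- hepatocyte libraries and at 1.66 to 1.79 in those of whole liver, while *Il6ra* ranges from -0.78 to 0.33 in the former and from -1.07 to -0.40 in the latter.

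The members did not move as a block, as the map of their deviations shows. In Cdk1 Liv-/- whole liver, *Il6ra* and *Lifr* were below the WT mean in all 3 libraries while *Il6st*, *Osmr*, *Jak1*, *Stat3*, *Socs3* and *Clcf1* were above it in all 3. Replicate 2 had the largest deviation of that group in *Il6*, *Il6ra*, *Osmr*, *Lifr*, *Jak1*, *Stat3* and *Socs3*, but not in *Clcf1* or *Il6st*. In Cdk1 Liv-/- hepatocytes, *Osmr* and *Socs3* were highest in replicate 3 and *Il6ra* was lowest in replicate 2.

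Genes with the most similar pattern over the 12 libraries were taken from 12281 genes with a mean of at least 1 FPKM, as a description by Pearson's r. All 12 libraries enter r, so that differences between the groups count in it. For *Socs3* they were *Fbxo6* (0.98), *Tmem136* (0.98) and *Slc35f5* (0.97), and for *Osmr* they were *P2rx4* (0.97), *Sh3pxd2b* (0.97) and again *Fbxo6* (0.97). *Stat3* was most like *Gm9770* (0.95), *Plec* (0.94) and *Susd6* (0.94). *Il6ra* was most like *Slc19a1* (0.97), *Gm16573* (0.90) and *Fnip2* (0.90).

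Among 9 other ligands of the family, 5 were tested. In hepatocytes *Lif* rose and *Ebi3* and *Ctf1* fell, and in whole liver *Lif* rose and *Ctf1* fell. The shares of all genes tested that were higher and lower were 12.1% and 6.61% in hepatocytes and 38.0% and 7.53% in whole liver. The median log2 fold change of the tested ligands was -0.03 in hepatocytes and -0.12 in whole liver, beside 0.05 and 0.18 for all genes tested. *Lif* encodes leukemia inhibitory factor, the ligand of the *Lifr* product. It was at 0.01 FPKM in each WT hepatocyte library, about 1.44 to 1.97 reads, and at 1.51, 1.59 and 1.47 FPKM in Cdk1 Liv-/- hepatocytes. In whole liver *Lif* was at 0.05, 0.02 and 0.03 FPKM in WT and at 2.75, 2.31 and 1.63 FPKM in Cdk1 Liv-/-. The genotypes were far apart in both compartments, with log2 fold changes of 1.99 (SE 0.10, adjusted p = 0.000620) and 2.33 (SE 0.16, adjusted p = 0.000785). With WT this close to 0 the fold change depends on the pseudocount, and with 0.1 it was 3.88 in hepatocytes and 4.10 in whole liver. The difference between the compartments was -0.35 (adjusted p = 0.315).

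*Ebi3*, a subunit of interleukin-27, was at 1.59, 1.11 and 2.92 FPKM in WT hepatocytes and at 0.27, 0.31 and 0.26 FPKM in Cdk1 Liv-/- hepatocytes, where it fell, with a log2 value of -1.53 (SE 0.28, adjusted p = 0.0231). In whole liver the genotypes overlapped, at 2, 2.34 and 2.78 FPKM in WT against 1.59, 2.82 and 2.11 FPKM in Cdk1 Liv-/-, with a log2 fold change of -0.12 (adjusted p = 0.657), and the difference of the effects was -1.41 (adjusted p = 0.0637). *Ctf1*, which encodes cardiotrophin 1, was at 6.93, 7.85 and 5.71 FPKM in WT against 4.65, 4.87 and 3.4 FPKM in Cdk1 Liv-/- hepatocytes, and at 6.72, 7.7 and 6.09 and 5.86, 5.12 and 5.76 FPKM in whole liver. No library overlapped in either compartment. Its log2 fold changes were -0.61 (SE 0.18, adjusted p = 0.0846) in hepatocytes and -0.27 (SE 0.10, adjusted p = 0.0926) in whole liver. The first was not past the test without WT replicate 1 or 2 or any Cdk1 Liv-/- replicate (adjusted p = 0.115 to 0.198, with 0.0143 to 0.198 over all alternatives), and the second without WT replicate 1 or 2 or any Cdk1 Liv-/- replicate (adjusted p = 0.121 to 0.211, with 0.0208 to 0.215). *Il31* was listed at 0 in all 12 libraries.

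Of 5 other receptor genes, 3 were tested. *Il11ra1*, the receptor of interleukin-11, was at 20.4, 20.6 and 21.6 FPKM in WT against 14.3, 18.3 and 12.2 FPKM in Cdk1 Liv-/- hepatocytes, with the groups separate. It fell there, with a log2 fold change of -0.49 (SE 0.15, adjusted p = 0.0918), against -0.07 (adjusted p = 0.566) in whole liver and -0.41 (adjusted p = 0.194) for the difference of the effects, and was not past the test without any single WT replicate or without Cdk1 Liv-/- replicate 1 or 3 (adjusted p = 0.173 to 0.196, with 0.0198 to 0.196 over all alternatives). *Il27ra*, which pairs with gp130 to bind interleukin-27, was at 0.78, 1.01 and 1.15 FPKM in WT against 1.86, 1.84 and 1.81 FPKM in Cdk1 Liv-/- whole liver. It rose there, with a log2 fold change of 0.67 (SE 0.11, adjusted p = 0.00918), and in hepatocytes its value was -0.48 (adjusted p = 0.270). The difference of the effects was -1.14 (adjusted p = 0.0655). The median of the 3 genes was -0.49 in hepatocytes and 0.04 in whole liver, beside 0.05 and 0.18 for all genes tested.

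Of 9 other kinases and STATs, all tested, 0 passed in hepatocytes in limma and 0 in a two-sample test with the same adjustment, with 1 at an unadjusted p under 0.05. In whole liver 4 were higher, *Jak2*, *Jak3*, *Tyk2* and *Stat6*, and 2 were lower, *Stat5a* and *Stat5b*, which carry growth hormone signals in hepatocytes. Of all genes tested, 12.1% were higher and 6.61% lower in hepatocytes, and 38.0% and 7.53% in whole liver. The medians of the 9 genes were 0.01 and 0.14, beside 0.05 and 0.18 for all genes tested. *Stat5b* was at 19.2, 17.9 and 17.9 FPKM in WT whole liver and at 12.9, 12.2 and 10.6 FPKM in Cdk1 Liv-/- whole liver, without overlap, a log2 fold change of -0.60 (SE 0.08, adjusted p = 0.00545). In hepatocytes its value was -0.29 (adjusted p = 0.208), and the difference of the effects was 0.31 (adjusted p = 0.276). *Jak3* had 0.62 (SE 0.13, adjusted p = 0.0181), *Jak2* 0.39 (SE 0.10, adjusted p = 0.0354) and *Stat5a* -0.47 (SE 0.15, adjusted p = 0.0516). Of these, *Jak2* was not past the test without WT replicate 1 (adjusted p = 0.109, with 0.0240 to 0.217 over all alternatives), and *Stat5a* without WT replicate 1 or 2 or Cdk1 Liv-/- replicate 2 or 3 (0.110 to 0.133, with 0.0212 to 0.133). The count of those higher became 1 without WT replicate 1, 2 without WT replicate 2 and 1 after median-ratio scaling. The count of those lower became 1 without WT replicate 1 or 2, Cdk1 Liv-/- replicate 2 or 3, and 4 when Cdk1 Liv-/- replicate 1 was left out.

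Of 15 other inhibitors, all tested, 2 were higher in hepatocytes, *Cish* and *Socs4*, and 8 in whole liver, and none was lower in either (6 and 8 at an unadjusted p under 0.05 in limma). Their medians were 0.10 and 0.25, beside 0.05 and 0.18 for all genes tested. Among all genes tested 12.1% were higher in hepatocytes and 38.0% in whole liver. *Cish*, a target of STAT5, was at 3.23, 4.23 and 3.44 FPKM in WT against 5.22, 7.62 and 14.1 FPKM in Cdk1 Liv-/- hepatocytes, a log2 fold change of 1.10 (SE 0.34, adjusted p = 0.0957), and *Socs4* had 0.43 (SE 0.13, adjusted p = 0.0960). In whole liver they had 0.73 (adjusted p = 0.178) and 0.11 (adjusted p = 0.294), and their differences of the effects between the compartments were 0.37 (adjusted p = 0.723) and 0.33 (adjusted p = 0.199). Leaving out WT replicate 1, 2 or 3 or Cdk1 Liv-/- replicate 2 or 3 ended the call of *Cish* (adjusted p = 0.129 to 0.218, with 0.0574 to 0.218 over all alternatives), and leaving out any of the 6 libraries ended that of *Socs4* (adjusted p = 0.135 to 0.208, with 0.0116 to 0.239). In whole liver *Ptpn2*, a phosphatase of Janus kinases and STATs, had 0.56 (SE 0.07, adjusted p = 0.00510), and *Socs1*, an inhibitor close to *Socs3*, had 0.66 (SE 0.23, adjusted p = 0.0725). *Socs1* was at 0.5, 0.94 and 0.76 FPKM in WT against 2.09, 1.23 and 1.09 FPKM in Cdk1 Liv-/- whole liver, without overlap. The smallest changes past the test were those of *Pias1*, 0.25 (SE 0.08, adjusted p = 0.0609), and *Socs6*, 0.22 (SE 0.07, adjusted p = 0.0488). The count of 8 became 3 without WT replicate 1 or WT replicate 3, 5 without Cdk1 Liv-/- replicate 1 or Cdk1 Liv-/- replicate 2, and 2 after median-ratio scaling. The call of *Socs1* ended without WT replicate 1 or 3 or Cdk1 Liv-/- replicate 1 or 2 (adjusted p = 0.104 to 0.196, with 0.0529 to 0.212 over all alternatives), that of *Pias1* without WT replicate 1 or 3 or Cdk1 Liv-/- replicate 1 (0.121 to 0.177, with 0.0448 to 0.691), and that of *Socs6* without WT replicate 1 or 3 or Cdk1 Liv-/- replicate 2 (0.103 to 0.128, with 0.0337 to 0.794).

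Of 9 adaptors and shedding factors, all tested, *Rhbdf1* and *Rhbdf2* rose in hepatocytes and 6 genes rose in whole liver, with medians of 0.03 and 0.35 beside 0.05 and 0.18 for all genes tested. The shares higher among all genes tested were 12.1% in hepatocytes and 38.0% in whole liver. The products of *Rhbdf1* and *Rhbdf2* guide the protease ADAM17, which sheds the IL-6 receptor from the cell surface, to its site. *Rhbdf1* was at 4.35, 4.11 and 5.55 FPKM in WT against 8.6, 8 and 10.3 FPKM in Cdk1 Liv-/- hepatocytes, and at 5.13, 5.44 and 5.77 and 11.4, 13.7 and 13.05 FPKM in whole liver. *Rhbdf2* was at 4.19, 4.13 and 5.06 FPKM in WT against 6.33, 10.2 and 8.4 FPKM in Cdk1 Liv-/- hepatocytes, and at 5.22, 5.39 and 5.48 and 11.1, 12.01 and 10.8 FPKM in whole liver. Neither gene overlapped between the genotypes in either compartment. The log2 fold changes of *Rhbdf1* were 0.88 (SE 0.16, adjusted p = 0.0212) and 1.15 (SE 0.09, adjusted p = 0.00101), and those of *Rhbdf2* were 0.81 (SE 0.19, adjusted p = 0.0469) and 1.01 (SE 0.06, adjusted p = 0.000530). In hepatocytes *Rhbdf2* was not past the test without WT replicate 1 or 2, Cdk1 Liv-/- replicate 2 or Cdk1 Liv-/- replicate 3 (adjusted p = 0.1001 to 0.137, with 0.00274 to 0.137 over all alternatives). The smallest changes past the test in whole liver were those of the adaptors *Shc1*, 0.35 (SE 0.06, adjusted p = 0.0114), and *Grb2*, 0.26 (SE 0.06, adjusted p = 0.0232). *Adam17* itself had a log2 fold change of -0.07 (adjusted p = 0.796) in hepatocytes and 0.15 (adjusted p = 0.284) in whole liver. After median-ratio scaling 3 of the 6 genes remained past the test in whole liver. *Shc1*, then at 0.13 (adjusted p = 0.166, with 0.00918 to 0.166 over all alternatives), *Grb2*, then at 0.05 (0.595, with 0.0186 to 0.595), and *Gab2* did not.

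The 41 genes known as targets of STAT3, many of them genes of the acute phase, were all tested. In hepatocytes 22 were higher, 17 of them with a log2 fold change of at least 1, and 2 were lower, *Vegfa* and *Il4ra*, against 12.1%, 4.20% and 6.61% of all genes tested. In whole liver 26 were higher, 18 of them with a log2 fold change of at least 1, and 1 was lower, *Itih4*, against 38.0%, 4.59% and 7.53% of all genes tested. The medians of the targets were 0.94 in hepatocytes and 0.63 in whole liver, beside 0.05 and 0.18 for all genes tested, and 0.43 in whole liver after median-ratio scaling. The counts of higher genes lay between 15 and 25 in hepatocytes and between 20 and 29 in whole liver over the alternatives that used the adjusted p alone. The count of lower genes in hepatocytes became 1 without WT replicate 1, 2 or 3 or without Cdk1 Liv-/- replicate 1 or 2. In whole liver it became 0 without WT replicate 1 or 3, Cdk1 Liv-/- replicate 1 or 3, 2 when replicate 2 of Cdk1 Liv-/- was left out, and 4 after median-ratio scaling. Calls among all genes tested there numbered 5951 after that scaling, 52.2% of them higher, against 7920 and 83.5% unscaled. Most of the 41 targets answer to other factors too, among them NF-kappaB and C/EBP proteins, and the share of STAT3 in their change was not tested.

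*Orm1* and *Orm2*, which encode the acute phase protein orosomucoid, changed most. *Orm1* was at 0.81, 0.33 and 0.7 FPKM in WT against 394, 291 and 711 FPKM in Cdk1 Liv-/- hepatocytes, and at 0.9, 0.68 and 0.87 and 135, 259 and 130.0 FPKM in whole liver, with log2 fold changes of 8.63 (SE 0.35, adjusted p = 0.000409) and 6.98 (SE 0.28, adjusted p = 0.000167). *Orm2* was at 0.33, 0.37 and 0.3 FPKM in WT against 108, 109 and 210.1 FPKM in Cdk1 Liv-/- hepatocytes, with log2 fold changes of 7.35 (SE 0.27, adjusted p = 0.000409) there and 6.26 (SE 0.27, adjusted p = 0.000228) in whole liver. Each of these groups was far from the other. *Orm1*, *Orm2* and *Orm3*, like *Saa1* and *Saa2*, are close paralogs, so that reads may be shared between them. *Saa1*, serum amyloid A, was at 6.69, 3.51 and 3.9 FPKM in WT against 261, 219 and 432 FPKM in Cdk1 Liv-/- hepatocytes, and at 6.78, 8.02 and 8.07 and 139, 169 and 103 FPKM in whole liver, with log2 fold changes of 5.86 (SE 0.32, adjusted p = 0.000786) and 4.06 (SE 0.19, adjusted p = 0.000234).

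*Hamp*, which encodes hepcidin, the hormone that limits iron uptake, was at 0.89, 1.14 and 0.57 FPKM in WT against 202, 110.3 and 71.9 FPKM in Cdk1 Liv-/- hepatocytes. In whole liver it was at 0.45, 0.59 and 1.49 FPKM in WT against 81.04, 36.8 and 50.2 FPKM in Cdk1 Liv-/-. The genotypes were far apart, with log2 fold changes of 6.45 (SE 0.38, adjusted p = 0.00110) in hepatocytes and 5.40 (SE 0.39, adjusted p = 0.000840) in whole liver. *Steap4*, a metalloreductase, had values of 37.7, 31.3 and 44.5 FPKM in WT against 97.7, 93.2 and 146 FPKM in Cdk1 Liv-/- hepatocytes, and 43.6, 44.1 and 38.2 and 141, 103 and 112 FPKM in whole liver. It rose in both, by 1.54 (SE 0.21, adjusted p = 0.00918) and 1.48 (SE 0.13, adjusted p = 0.00155) on the log2 scale. These are the genes whose upstream sequences stand beside that of *Socs3*.

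*Lcn2*, an iron-binding defence protein that neutrophils also make, was at 8.37, 10.1 and 9.28 FPKM in WT against 450.1, 559 and 963 FPKM in Cdk1 Liv-/- hepatocytes, and at 14.5, 11.7 and 14.4 and 383, 662 and 516 FPKM in whole liver. Its log2 fold changes were 6.0 (SE 0.27, adjusted p = 0.000491) and 5.19 (SE 0.21, adjusted p = 0.000172). The neutrophil sums in hepatocytes, 14.3, 12.1 and 50.99 FPKM in WT against 20.99, 9.84 and 19.9 FPKM in Cdk1 Liv-/-, overlapped between the genotypes, and those in whole liver, 74.4, 46.05 and 71.1 FPKM in WT against 89.4, 319 and 258 FPKM in Cdk1 Liv-/-, were higher without overlap. Their part in the *Lcn2* result was not tested. *Timp1*, an inhibitor of matrix proteases, was at 0.03, 0.1 and 0.14 FPKM in WT against 6.83, 9.88 and 12.8 FPKM in Cdk1 Liv-/- hepatocytes, and at 0.35, 0.3 and 0.85 and 19.5, 30.1 and 21.6 FPKM in whole liver, with log2 fold changes of 4.09 (SE 0.24, adjusted p = 0.00110) and 4.62 (SE 0.26, adjusted p = 0.000416).

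Some acute phase genes that are abundant in WT moved less than *Orm1* or *Saa1*. *Hp*, which encodes haptoglobin, was at 2039.7, 2167 and 1857 FPKM in WT against 3979, 4035 and 5489.8 FPKM in Cdk1 Liv-/- hepatocytes, and at 2186, 2124 and 2077 and 4222, 4503 and 4422 FPKM in whole liver, with log2 fold changes of 1.14 (SE 0.18, adjusted p = 0.0139) and 1.04 (SE 0.08, adjusted p = 0.00122). The fibrinogen genes *Fga*, *Fgb* and *Fgg*, classical targets of IL-6 in hepatocytes, did not pass with all libraries. Their log2 fold changes in hepatocytes were 0.34 (adjusted p = 0.198), 0.32 (adjusted p = 0.195) and 0.28 (adjusted p = 0.278), and in whole liver 0.24 (adjusted p = 0.214), 0.16 (adjusted p = 0.411) and 0.18 (adjusted p = 0.293), of which those of *Fgb* and *Fgg* were negative after median-ratio scaling. With replicate 2 as the one Cdk1 Liv-/- whole liver library they were higher past the test, *Fga* at 0.49 (adjusted p = 0.0443, with 0.0443 to 0.937 over all alternatives), *Fgb* at 0.45 (0.0457, with 0.0457 to 0.886) and *Fgg* at 0.41 (0.0506, with 0.0506 to 0.836).

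*Vegfa*, a growth factor for vessels, fell in hepatocytes, from 91.6, 88.02 and 93.8 FPKM in WT to 65.4, 63.9 and 68.4 FPKM in Cdk1 Liv-/-, a log2 fold change of -0.46 (SE 0.06, adjusted p = 0.0102), against -0.31 (adjusted p = 0.182) in whole liver and -0.15 (adjusted p = 0.668) for the difference of the effects. *Il4ra* had -0.36 (SE 0.10, adjusted p = 0.0823) in hepatocytes and was not past the test without any single WT replicate or without Cdk1 Liv-/- replicate 1 or 2 (adjusted p = 0.126 to 0.192, with 0.0320 to 0.192 over all alternatives). The smallest rise past the test in whole liver was that of *Lbp*, 0.17 (SE 0.06, adjusted p = 0.0925), and the drop of *Itih4* was -0.25 (SE 0.08, adjusted p = 0.0628). *Lbp* was not past it without WT replicate 1 or 2, Cdk1 Liv-/- replicate 2 or Cdk1 Liv-/- replicate 3 (adjusted p = 0.149 to 0.246, with 0.0473 to 0.569 over all alternatives) and was negative after median-ratio scaling, and *Itih4* was not past it without any single WT replicate or without Cdk1 Liv-/- replicate 1 or 3 (adjusted p = 0.119 to 0.174, with 0.00950 to 0.290).

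With replicates 1 and 3 of Cdk1 Liv-/- whole liver left out, several calls on these lists were lost in that compartment, those of *Socs5*, *Cebpb*, *Cebpd*, *Ctf1* at -0.38 (adjusted p = 0.159, with 0.0208 to 0.215 over all alternatives), *Stat5a* at -0.48 (0.120, with 0.0212 to 0.133), *Socs1* at 0.50 (0.212, with 0.0529 to 0.212), *Pias1* at 0.20 (0.238, with 0.0448 to 0.691), *Lbp* at 0.17 (0.232, with 0.0473 to 0.569) and *Itih4* at -0.12 (0.290, with 0.00950 to 0.290). *Adam17*, *Fgl1*, *Apcs* and *Itih3* were past the test as higher with replicate 2 alone. *Saa4* was lower then, at -0.72 (adjusted p = 0.0403, with 0.0403 to 0.320 over all alternatives), and *Il4ra*, at 0.26 (adjusted p = 0.103) with all libraries, was higher without replicate 3, at 0.35 (adjusted p = 0.0530, with 0.0530 to 0.797 over all alternatives).

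The effect on the targets differed between the compartments for 7 of the 41 genes, where 2.35% of all genes tested were above and 7.49% below 0 past the same test. It was larger in hepatocytes for 6, *Orm1*, *Orm3*, *Saa1*, *Saa2*, *Saa3* and *Saa4*, and *Il4ra* lay on the other side. The largest difference was that of *Orm3*, 2.62 (SE 0.48, adjusted p = 0.0362), followed by *Saa2* with 2.01 (SE 0.37, adjusted p = 0.0360). The count of 6 became 1 without WT whole liver replicate 1, 2 without WT whole liver replicate 2 and 3 with the 3 libraries that stand apart left out together, where *Vegfa* passed below 0. Of the other lists, the interaction passed for 1 ligand, 1 receptor and 1 inhibitor, *Ebi3*, *Il27ra* and *Socs1*, all below 0, and in limma for 0 of the kinases and STATs and 0 of the adaptors and shedding factors (1 and 2 at an unadjusted p under 0.05). Between the WT compartments, 2 targets were lower in hepatocytes, *Irf1* with -0.77 (SE 0.10, adjusted p = 0.0602) and *Orm2* with -0.58 (SE 0.09, adjusted p = 0.0864), beside 1.42% of all genes tested that were lower. Neither call was kept without WT hepatocyte replicate 1 or 2 or WT whole liver replicate 1 or 2, with the replicate number as a block, where no gene passed, or in a fit of all 12 libraries, and *Orm2* also lost it without WT whole liver replicate 3 and after median-ratio scaling. Without WT hepatocyte replicate 3 the count of 2 became 8, while calls among all genes tested went from 265 to 3069, 13.5% of them higher.

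**Figure D5:**
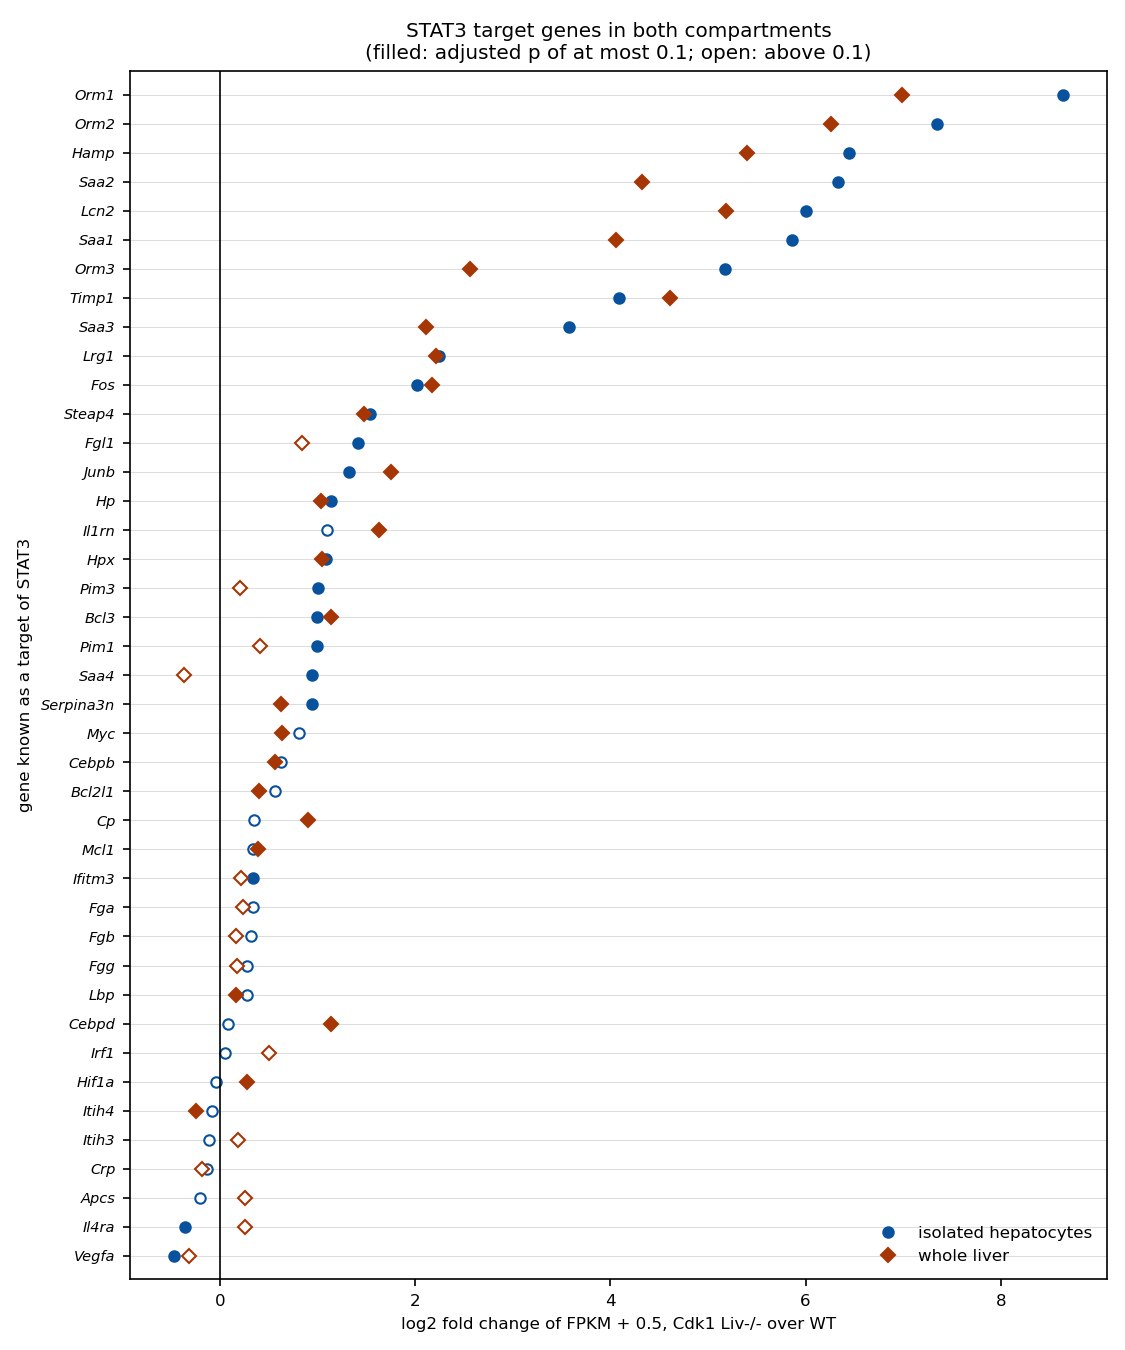
Log2 fold change of FPKM + 0.5 (x axis, Cdk1 Liv-/- over WT) of the 41 genes known as targets of STAT3 (y axis, ordered by the value in hepatocytes), in isolated hepatocytes (blue circles) and whole liver (brown diamonds), filled where the adjusted p was at most 0.1. *Orm1* is at 8.63 and 6.98, and *Fga*, *Fgb* and *Fgg* are open symbols between 0.16 and 0.34. Of these, *Fgb* and *Fgg* in whole liver turn negative after median-ratio scaling. With replicates 1 and 3 left out, the Cdk1 Liv-/- whole liver group is replicate 2 alone, and the 3 genes are at 0.41 to 0.49 there.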

How the data were processed

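Gene expression was read from the deposited table of FPKM for 12 RNA-seq libraries, which the authors made with STAR and RSEM. The processing notes of the submitters name RSEM 1.2.31 and mm10, while for the STAR version and the annotation the sources used here give nothing. Libraries were grouped by compartment and genotype, 3 per group. Tests were made with limma 3.58.1 (R 4.3.3), taking log2(FPKM + 0.5) and an eBayes trend, over 17386 genes with a mean of at least 0.1 FPKM. P-values were adjusted over all these genes by Benjamini and Hochberg, and genes passed at 0.1. Genotypes were compared within each compartment, the difference of these effects over 12 libraries, and the compartments within WT. All members are named, and of each other list, in each compartment, the top 2 and bottom 2 by log2 fold change of those that passed, plus genes for their role. Other names were chosen after their values were seen. Members and lists (ligands, receptors, kinases and STATs, inhibitors, adaptors and shedding factors, STAT3 targets, 10 sets of cell markers) were chosen with earlier results of these data known. Reads behind an FPKM were estimated from the steps between low values, up to 0.5 FPKM on transcripts of 300 to 900 bases. Of these values 64.0% to 71.5% came out whole to within 0.03 reads, against 17.9% to 25.1% at random. Reads of overlapping genes or close paralogs cannot be separated in this table. The method was also run on simulated data, and the outcome is not given here. Alternatives changed the pseudocount, filter, scaling, trend, replicate block, threshold, fit and test, and left out each library. Columns of the authors' own comparisons were not used.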

Additional observations from a re-analysis of the deposited data

Results flagged for a closer look

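Among 91 pathway genes tested, the effect of the genotype differed between isolated hepatocytes and whole liver for 10 by the interaction test in limma, 6 above and 4 below 0 (hepatocytes minus whole liver, log2). Of all genes tested, 2.35% were above and 7.49% below 0 past the same test. Above 0 were *Orm3* at 2.62 (adjusted p = 0.0362), *Saa2* at 2.01 (adjusted p = 0.0360), *Saa1* at 1.80 (adjusted p = 0.0508), *Orm1* at 1.65 (adjusted p = 0.0814), *Saa3* at 1.47 (adjusted p = 0.0943) and *Saa4* at 1.31 (adjusted p = 0.0585). Below 0 were *Il4ra* at -0.62 (adjusted p = 0.0587), *Socs1* at -1.13 (adjusted p = 0.0787), *Il27ra* at -1.14 (adjusted p = 0.0655) and *Ebi3* at -1.41 (adjusted p = 0.0637). In the same comparison every tested marker of sinusoidal endothelial cells (10 genes, median -1.65), neutrophils (10 genes, -1.52), Kupffer cells and macrophages (11 genes, -1.42), stellate cells (10 genes, -1.22) and monocytes (6 genes, -0.94) was below 0 as well, while 3 of 10 hepatocyte markers were above 0 past the test (*Cps1*, *Ass1* and *Hnf4a*, 2 to 3 in leave-one-out) and 0 below, with a median of 0.32. The part of these cells in the results was not tested.

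*Orm1*, *Orm3*, *Saa1*, *Saa2* and *Saa3* rose in both compartments, and *Saa4* had 0.94 (adjusted p = 0.0622) in hepatocytes and -0.36 (adjusted p = 0.135) in whole liver. The former was lost without any single WT hepatocyte replicate or Cdk1 Liv-/- hepatocyte replicate 1 or 3 (adjusted p = 0.116 to 0.166, with 0.0118 to 0.169 over all alternatives). In whole liver *Saa4* was lower past the test after median-ratio scaling, at -0.59 (adjusted p = 0.0636, with 0.0403 to 0.320 over all alternatives), and with Cdk1 Liv-/- replicates 1 and 3 left out, at -0.72 (0.0403). *Saa2* kept its call without each library in turn. The others lost it when some libraries were left out: *Orm3* without WT whole liver replicate 1 (adjusted p = 0.105), *Saa1* without WT whole liver replicate 1 or 2 (0.106 to 0.124), *Saa4* without any single WT whole liver replicate or Cdk1 Liv-/- whole liver replicate 2 (0.101 to 0.150), and *Il4ra* without WT whole liver replicate 1 or 2 or Cdk1 Liv-/- whole liver replicate 2 (0.112 to 0.150). *Ebi3* (0.101 to 0.163) and *Il27ra* (0.102 to 0.164) lost it without Cdk1 Liv-/- hepatocyte replicate 3, any single WT whole liver replicate, or Cdk1 Liv-/- whole liver replicate 2 or 3. *Orm1* lost it without WT hepatocyte replicate 1 or 3, Cdk1 Liv-/- hepatocyte replicate 1 or 3, WT whole liver replicate 1, 2 or 3 or Cdk1 Liv-/- whole liver replicate 1 or 3 (0.105 to 0.182), *Saa3* without WT hepatocyte replicate 1, 2 or 3, Cdk1 Liv-/- hepatocyte replicate 1 or 3, WT whole liver replicate 1 or 2 or Cdk1 Liv-/- whole liver replicate 1, 2 or 3 (0.109 to 0.204) and *Socs1* without WT hepatocyte replicate 1 or 3, Cdk1 Liv-/- hepatocyte replicate 1, 2 or 3, WT whole liver replicate 1, 2 or 3 or Cdk1 Liv-/- whole liver replicate 1 or 2 (0.105 to 0.183). Over all alternatives the adjusted p ran from 0.00217 to 0.105 for *Orm3*, 0.0375 to 0.182 for *Saa1*, 0.0150 to 0.150 for *Saa4*, 0.0339 to 0.150 for *Il4ra*, 0.0181 to 0.163 for *Ebi3*, 0.0193 to 0.164 for *Il27ra*, 0.0582 to 0.339 for *Orm1*, 0.0693 to 0.401 for *Saa3* and 0.0229 to 0.1999 for *Socs1*. With the 3 libraries that stand apart left out together, *Saa1*, *Orm1*, *Saa3*, *Il4ra*, *Socs1* and *Il27ra* were not past the test, at 1.37 (adjusted p = 0.182), 1.08 (0.339), 1.06 (0.401), -0.57 (0.103), -0.85 (0.1999) and -0.90 (0.135). The cause of these differences was not tested.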

How the results depend on the processing

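Over 1981 values of single genes under alternatives, 1694 kept their direction and side of the threshold, 245 kept their direction and no longer passed, 24 newly passed and 18 changed sign. In hepatocytes 3 members were higher and 1 lower. With the replicate block 1 was higher, *Clcf1*, with no filter and in the two-sample test 2 were, *Socs3* being lost (adjusted p = 0.175 and 0.184, with 0.0114 to 0.184 over all alternatives), and 0 were lower with a filter at a mean of 1 FPKM (*Il6* then not tested), with a log2 fold change of at least 1, and in a fit of all 12 libraries. In whole liver 6 were higher and 2 lower, and 3 and 0 with a log2 fold change of at least 1. There 5 were higher with the replicate block and in the two-sample test (without *Stat3*), 4 after median-ratio scaling (without *Stat3* and *Jak1*), and with no filter *Stat3* was lost and *Osm* gained. Leaving out each library gave 2 to 3 higher and 1 lower in hepatocytes, and 4 to 6 higher and 1 to 2 lower in whole liver. For the interaction, 0 above and 0 below became 1 below with a pseudocount of 0.1 (*Il6*) and with no filter (*Osm*), 1 above with a filter at 1 FPKM or median-ratio scaling (*Lifr*), and 1 each with the libraries that stand apart left out together, chosen after seeing the data. Leave-one-out gave 0 to 1 on either side. Between WT compartments 0 became 1 lower in a fit of all 12 libraries (*Clcf1*), and leave-one-out gave 0 to 1 on either side.

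Calls among all genes numbered 3257 in hepatocytes, against 1456 with the replicate block, 1920 in the two-sample test, 5506 in a fit of all 12 libraries and 1559 to 2498 in leave-one-out. The two-sample test took its kind from the methods of the study, and its genes and adjustment are those used here. In whole liver they numbered 7920, of which 83.5% were higher, against 5951, of which 52.2% were higher, after median-ratio scaling. For the interaction they numbered 1712, against 915 with no filter, 1039 after median-ratio scaling, 656 with the replicate block and 78 to 2639 in leave-one-out. Between WT compartments they numbered 265, against 89 with a filter at 1 FPKM, 79 after median-ratio scaling, 119 rescaled to the same sum, 0 with the replicate block, 510 in a fit of all 12 libraries and 1 to 3069 in leave-one-out. With a log2 fold change of at least 1 there were 1107 in hepatocytes and 972 in whole liver. Whether replicate numbers pair the libraries cannot be decided from correlations in groups of 3. Over 18 pairs of libraries of the same number, within and between compartments and genotypes, correlations ran from -0.317 to 0.239. Of these, 2 were over 0.1, and 5 were highest with their own number. Between the compartments of the same genotype, where libraries could share an animal, they were 0.0456, 0.074 and 0.239 in WT. In Cdk1 Liv-/- they were -0.0346, -0.0569 and -0.121.

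Changes of sign in hepatocytes: *Lifr* 0.0074 rescaled to the same sum and -0.11 to 0.078 in leave-one-out, *Il6st* -0.093 to 0.45, *Jak1* -0.027 to 0.22 and *Il6ra* -0.49 to 0.061 in leave-one-out. In whole liver after median-ratio scaling: *Lbp* -0.055, *Fgb* -0.060 and *Fgg* -0.041. In whole liver leave-one-out, *Ebi3* ran over -0.29 to 0.044, and with the libraries that stand apart left out together it was 0.22. The interaction of *Stat3* was -0.028 to 0.22 in leave-one-out and -0.079 with those libraries left out. Between WT compartments *Osmr* was 0.0062 and *Lifr* 0.046 after median-ratio scaling, and -0.26 to 0.12 and -0.17 to 0.019 in leave-one-out. None of the values that changed sign had passed except *Lbp*, and the cause was not tested. Where a group keeps 1 library, its spread is assumed to be that of the other group. Depth limits values near 0.1 FPKM, among them *Il6* and *Osm*.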
